A study of Rattus norvegicus with 65 samples.

Results

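Muscle contraction depends on the genes described here, which encode the thick and thin filaments of the sarcomere, the M-band and Z-disc that hold them, and proteins that assemble, stretch-couple or phosphorylate them. They were listed by symbol and not selected by a measured value, but the list was made with earlier results of these data known. Of 41 listed rat genes, 39 were found among the 14554 genes of the count table, while Ttn (titin) and Myot (myotilin) were not analysed here. At least 10 counts in every library were found for 38 of the 39, Lrrc10 being the exception. Transcripts were counted in primary neonatal rat cardiomyocytes, heart muscle cells isolated from newborn rats, after 6 or 24 h with a drug or with its solvent. The drugs were the antimetabolite 5FU (5-fluorouracil, 10 mM), the analgesic Ace (acetaminophen, 2.5 mM) and the anthracycline Dox (doxorubicin, 1.25 µM). The solvent control DMSO1 (1% DMSO) belonged to 5FU and DMSO2 (0.25% DMSO) to both Ace and Dox. Of 65 libraries, 6 each were from 5FU at 6 h, 5FU at 24 h, DMSO1 at 6 h, DMSO1 at 24 h and Ace at 6 h, and 7 each from Ace at 24 h, Dox at 6 h, Dox at 24 h, DMSO2 at 6 h and DMSO2 at 24 h.

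All groups shared the same preparation: hearts from several litters of a single day were pooled before plating, and cells were kept in serum and then starved of it overnight before treatment. The libraries of a group are therefore parallel cultures, and p-values measure the spread between cultures and not between animals. Rat strain and sex are not given in the sources used here.

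Myosin heads on the thick filament pull on thin filaments of actin, tropomyosin and troponin. The M-band keeps thick filaments aligned, and the Z-disc crosslinks thin filaments and carries many stretch-sensing adaptors. Several of these proteins exist as developmental isoforms, and around birth the rodent ventricle exchanges beta-myosin heavy chain (Myh7), slow troponin I (Tnni1) and skeletal actin (Acta1) for alpha-myosin heavy chain (Myh6), cardiac troponin I (Tnni3) and cardiac actin (Actc1).

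Library totals ran from 14332827 to 25738297 counts. Levels are given as CPM, the count of a gene scaled to a common library total with trimmed-mean (TMM) factors of 0.859 to 1.07, so every level is relative to the rest of its library. A gene is called higher or lower at a false discovery rate (FDR) below 0.01 over all 14554 genes. Of the listed cardiomyocyte markers outside the sarcomere, 13 of 15 were measured, and their median share of counts ran from 0.421% in Dox at 24 h to 1.59% in DMSO2 at 24 h. The 12 fibroblast markers took 0.539% in Dox at 24 h to 1.9% in DMSO1 at 24 h. In such bulk samples fewer cells of a type and less RNA per cell cannot be told apart.

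Some libraries stood apart from the others of their group. Library 7 of Dox at 6 h had 106 CPM of Xirp2, where the other 6 had 578 to 886 CPM. Library 7 of Dox at 24 h had 90.1 CPM of Actc1, where the other 6 had 458 to 577 CPM. Library 3 of DMSO1 at 6 h had 282.8 CPM of Mylk3, where the others had 198.5 to 219.1 CPM. It was also the lowest in Xirp2, at 115 CPM, but there the other 5 were themselves spread from 274 to 1511 CPM. Library 1 of DMSO1 at 24 h had 44.1 CPM of Tcap, where the others had 29 to 32.3 CPM. Leaving out library 7 of Dox at both times kept 263 of 273 results (called higher, called lower or not called) over the 39 genes in the comparisons with Dox, added 10 calls and moved log2 fold changes by at most 0.269. Leaving out library 3 of DMSO1 at 6 h with library 1 of DMSO1 at 24 h kept 299 of 312 in the comparisons with DMSO1, lost 6 calls, added 7 and moved log2 fold changes by at most 0.319.

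Promoters of 5 genes are shown because their transcripts lay at opposite ends in Dox at 24 h (RefSeq, build GRCr8, a window from 250 bases before to 50 bases after the annotated start). Lrrc10 (a leucine-rich repeat protein of the Z-disc, chr7:54572685-54572984, plus strand), Myh6 (chr15:32411648-32411947, minus strand) and Actc1 (chr3:121271778-121272077, minus strand) had the 3 lowest log2 fold changes. Acta1 (chr19:68784145-68784444, minus strand) and Myl4 (the atrial and fetal essential light chain, chr10:89975900-89976199, plus strand) were higher. Capitals mark matches on either strand to TATAAA, to CATTCC (the M-CAT core), to the CArG box or to the MEF2 site. None of these overlap here, although a MEF2 site can hold TATAAA. Des was also higher, and its window, which had no such match, is not shown.
Lrrc10: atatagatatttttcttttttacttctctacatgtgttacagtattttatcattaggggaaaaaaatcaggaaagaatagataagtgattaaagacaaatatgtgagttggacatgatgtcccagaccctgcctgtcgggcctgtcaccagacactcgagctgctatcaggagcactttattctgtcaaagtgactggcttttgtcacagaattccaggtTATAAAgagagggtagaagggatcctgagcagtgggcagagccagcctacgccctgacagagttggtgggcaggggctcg
Myh6: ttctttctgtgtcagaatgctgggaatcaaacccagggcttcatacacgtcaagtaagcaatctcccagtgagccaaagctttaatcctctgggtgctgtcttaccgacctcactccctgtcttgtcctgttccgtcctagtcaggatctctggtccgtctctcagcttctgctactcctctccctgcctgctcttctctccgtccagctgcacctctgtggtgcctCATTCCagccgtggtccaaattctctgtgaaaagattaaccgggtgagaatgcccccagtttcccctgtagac
Actc1: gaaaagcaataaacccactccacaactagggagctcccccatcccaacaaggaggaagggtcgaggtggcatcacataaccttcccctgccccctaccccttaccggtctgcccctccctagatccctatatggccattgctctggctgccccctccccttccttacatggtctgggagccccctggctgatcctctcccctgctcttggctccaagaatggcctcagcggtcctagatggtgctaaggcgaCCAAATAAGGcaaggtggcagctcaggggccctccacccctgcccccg
Acta1: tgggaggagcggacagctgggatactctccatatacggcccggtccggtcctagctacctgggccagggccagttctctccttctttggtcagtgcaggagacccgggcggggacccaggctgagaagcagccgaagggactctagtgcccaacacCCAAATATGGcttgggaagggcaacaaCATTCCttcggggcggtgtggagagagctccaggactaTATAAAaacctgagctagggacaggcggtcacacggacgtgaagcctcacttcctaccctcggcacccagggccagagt
Myl4: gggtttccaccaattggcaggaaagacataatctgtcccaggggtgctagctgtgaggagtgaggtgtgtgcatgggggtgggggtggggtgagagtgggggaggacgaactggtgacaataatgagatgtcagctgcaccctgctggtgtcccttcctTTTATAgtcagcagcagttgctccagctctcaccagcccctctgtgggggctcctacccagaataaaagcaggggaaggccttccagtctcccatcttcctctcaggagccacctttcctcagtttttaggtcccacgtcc

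The CArG box of Acta1 began at position -94 from the annotated start and that of Actc1 at position 2, behind the start. TATAAA began at position -30 in Lrrc10 and -29 in Acta1. RefSeq promoters were matched for 33 of the 39 genes. A CArG box was present in 15.2% of them (Acta1, Actc1, Ldb3, Myl3 and Nebl) and in 1.766% of 27457 genes with an annotated promoter. The MEF2 site was present in 18.2% (Mybpc3, Myoz2, Smpx, Synpo2l, Xirp1 and Xirp2) and 3.664%, CATTCC in 24.2% and 15.03%, and TATAAA in 12.1% and 15.27%. Of 28 matched genes that were lower in Dox at 24 h, 3 had a CArG box and 5 a MEF2 site. Of 3 that were higher, 1 had a CArG box and 0 a MEF2 site, and of 2 not called, 1 had each. Such matches describe the letters of the window only.

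Dox at 24 h brought the widest loss. Of the 39 genes, 33 were lower and 3 were higher than in DMSO2, where 41% of all genes were called lower and 40.4% higher. Their median log2 fold change was -1.43, against 0.00 over all genes. A fall of at least 1 on the log2 scale was called for 26 of them and for 19.3% of all genes. Together the 39 genes took 3.01% ± 0.433 (SD, n = 7) of counts in Dox at 24 h (3.15% without library 7) and 6.53% ± 0.392 (SD, n = 7) in DMSO2 at 24 h. The highest Dox library reached 3.55% and the lowest DMSO2 library 5.8%, so these groups did not overlap. Within the summed CPM of these genes, Myh6 made up 27.3% in DMSO2 at 24 h, while in Dox at 24 h Tnnt2 led with 20.2%, followed by Myl3 with 15.7% and Myl2 with 15.3%; these are shares of counts, not of molecules.

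**Figure D1:**
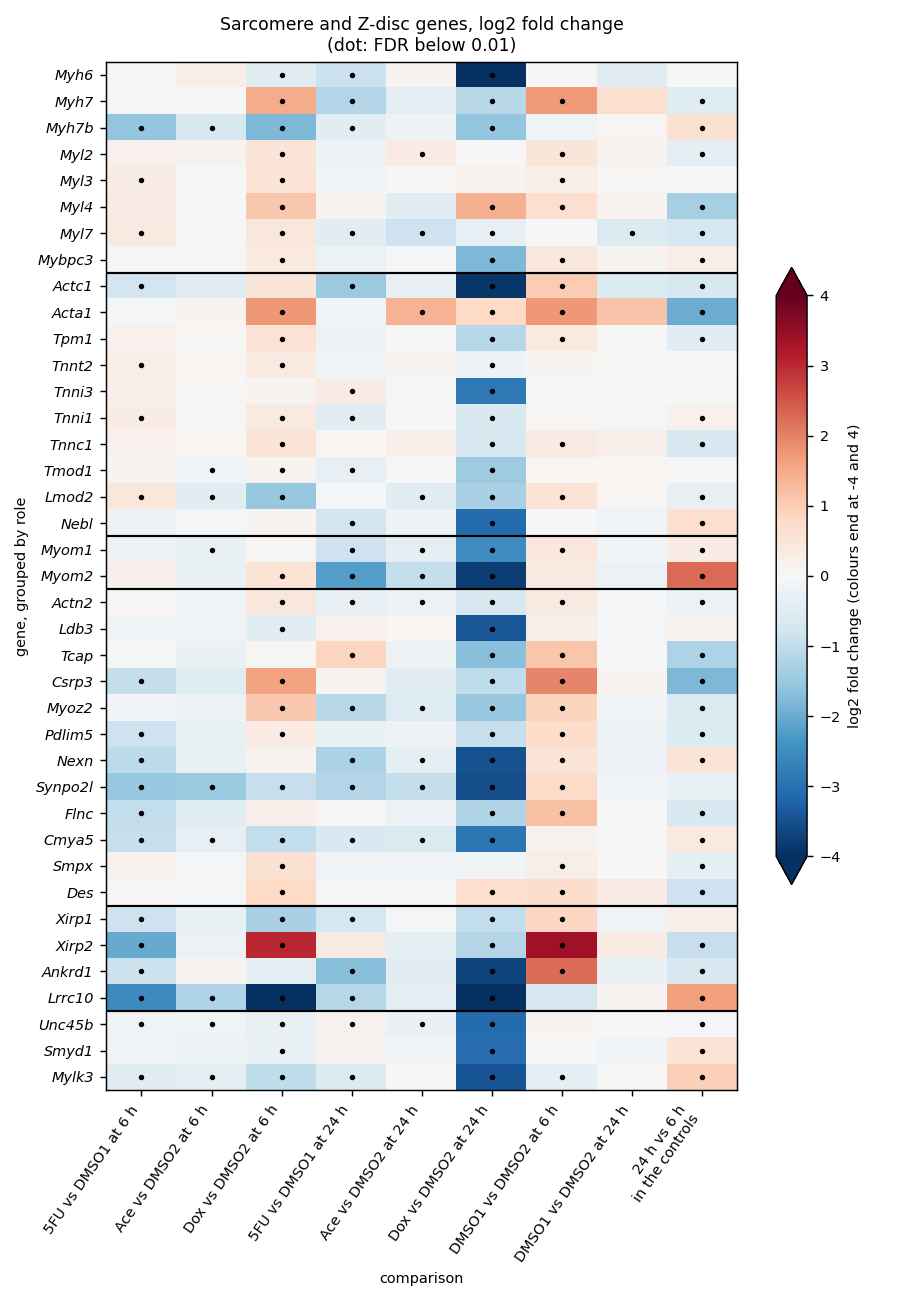
Log2 fold change of the 39 genes (rows, in blocks by role) in 9 comparisons (columns), from blue (lower) to red (higher) with colours ending at -4 and 4. A black dot marks FDR below 0.01: 33 genes are lower in the column of Dox at 24 h and 24 are higher in the column of DMSO1 against DMSO2 at 6 h.

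Of 8 thick-filament genes, 5 were lower and 1 was higher in Dox at 24 h, with a median log2 fold change of -0.73. Myh6 ranged from 14330 to 21400 CPM (median 17850) in DMSO2 at 24 h and from 896 to 1093 CPM (median 1027) in Dox at 24 h. All Dox libraries lay far below all controls, with a log2 fold change of -4.13 ± 0.114 (SE), adjusted p = 2e-41. Mybpc3, which binds myosin heads and is often mutated in hypertrophic cardiomyopathy, had a log2 fold change of -1.80 ± 0.0935. The other 3 that were lower were Myh7b (-1.55), Myh7 (-1.12) and Myl7 (-0.34), in log2 fold change.

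The ventricular light chains were not called with all libraries. Myl2, the regulatory light chain, ranged from 3952 to 4814 CPM (median 4301) in DMSO2 at 24 h and from 3570 to 5308 CPM (median 4539) in Dox at 24 h. These groups overlapped, and the log2 fold change was 0.03 ± 0.0717 (SE), adjusted p = 0.732. Myl3, the essential light chain, had 0.13 ± 0.0611 (SE), adjusted p = 0.0466, and was called higher without library 7, at 0.17.

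Myl4 was the thick-filament gene that rose. It ranged from 152 to 184 CPM (median 167) in DMSO2 at 24 h and from 208 to 618 CPM (median 464) in Dox at 24 h. Even the lowest Dox library lay above all controls, with a log2 fold change of 1.41 ± 0.15 (SE), adjusted p = 3.4e-13 and of 1.53 without library 7 at both times. In the annotation Myl4 overlaps Cdc27, a subunit of the anaphase-promoting complex, whose log2 fold change was -0.48. The overlap is of whole gene spans, and whether the transcripts share sequence was not checked. Since strandedness is not stated, reads from any shared stretch could not be told apart. Spans also overlap for Myh7b with Gss and Trpc4ap, at 0.49 and -0.17, and for Tmod1 with Tstd2, at -0.30.

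Of 10 thin-filament genes, 9 were lower and 1 was higher (median -1.22). Actc1 ranged from 4990 to 7891 CPM (median 7115) in DMSO2 at 24 h and from 90.1 to 577 CPM (median 504) in Dox at 24 h. No libraries overlapped, and the log2 fold change was -3.89 ± 0.231 (SE), adjusted p = 4.1e-24, or -3.71 without library 7. Nebl (nebulette, a thin-filament and Z-disc linker) had a log2 fold change of -3.07 ± 0.0855. Tnni3, the inhibitory troponin of the adult heart, ranged from 1483 to 2049 CPM (median 1773) in DMSO2 at 24 h and from 211 to 285 CPM (median 254) in Dox at 24 h, a log2 fold change of -2.87 ± 0.0772. The groups were again apart.

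Other thin-filament genes fell less: Tmod1 (-1.43), Lmod2 (-1.31), Tpm1 (-1.14), Tnnc1 (-0.63) and Tnni1 (-0.61), in log2 fold change. Tmod1 (tropomodulin) caps the pointed end of the thin filament and Lmod2 (leiomodin) lengthens it there. Tnnt2, the troponin that binds tropomyosin, ranged from 6279 to 7408 CPM (median 6776) in DMSO2 at 24 h and from 5313 to 6889 CPM (median 5759) in Dox at 24 h. Its groups overlapped, and the log2 fold change was -0.21 ± 0.0554 (SE), adjusted p = 0.00038.

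Acta1, which the fetal and the stressed heart express, was the thin-filament gene that was higher. It ranged from 308 to 577 CPM (median 346) in DMSO2 at 24 h and from 156 to 1082 CPM (median 769) in Dox at 24 h. Library 7 of Dox lay below every control, and the other 6 ranged from 604 to 1082 CPM. The log2 fold change was 0.81 ± 0.277 (SE), adjusted p = 0.00591, and 0.99 without library 7. Leaving out single libraries gave 0.70 to 1.01, and the call was lost in 6 of 14 such fits. Actin genes are nearly identical in coding sequence and so are Myh6 and Myh7 over long stretches, so the division of reads between them is uncertain.

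Both M-band genes were lower. Myom2 (M-protein) ranged from 153 to 181 CPM (median 160.3) in DMSO2 at 24 h and from 9.74 to 18.9 CPM (median 10.9) in Dox at 24 h, a log2 fold change of -3.79 ± 0.146. Its groups did not overlap. Myom1 (myomesin) had -2.50 ± 0.0766.

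Of 12 Z-disc genes, 10 were lower and 1 was higher (median -1.37). The lowest log2 fold changes were those of Synpo2l (-3.54), Nexn (-3.49), Ldb3 (-3.42) and Cmya5 (-2.91). Nexn (nexilin) and Synpo2l bind actin, and Ldb3 (Cypher) binds alpha-actinin. Tcap (telethonin), which caps titin at the Z-disc, had -1.66 ± 0.196, and Myoz2, a calsarcin that tethers calcineurin, had -1.53 ± 0.13. Smaller falls were called for Flnc (-1.21), Csrp3 (-1.004), Pdlim5 (-0.93) and Actn2 (-0.64), of which Actn2 is the alpha-actinin that crosslinks thin filaments. Without library 7, Csrp3 had -0.83. Smpx was not called, at -0.10 ± 0.0591 (SE), adjusted p = 0.116.

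Des (desmin, the intermediate filament between neighbouring Z-discs) was the Z-disc gene that rose. It ranged from 1671 to 1915 CPM (median 1782) in DMSO2 at 24 h and from 1606 to 3416 CPM (median 3030) in Dox at 24 h. Library 7 of Dox lay below every control, and the other 6 lay above them at 2868 CPM or more. The log2 fold change was 0.69 ± 0.11 (SE), adjusted p = 7.4e-08, or 0.79 without library 7.

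All 4 genes grouped under adhesion and stretch sensing and all 3 of myosin assembly or phosphorylation were lower. Lrrc10 ranged from 40.5 to 54.9 CPM (median 44.7) in DMSO2 at 24 h and from 0 to 0.804 CPM (median 0.181) in Dox at 24 h, and 3 of 7 Dox libraries were listed at 0 while the highest held 15 counts. Its fitted log2 fold change of -7.36 ± 0.345 rests on these few counts. Ankrd1, a stretch-responsive ankyrin-repeat protein that binds titin, ranged from 556 to 860.3 CPM (median 765) in DMSO2 at 24 h and from 45.4 to 70.8 CPM (median 55.1) in Dox at 24 h. The groups did not overlap (log2 fold change -3.69 ± 0.233). Xirp2 and Xirp1, actin-binding proteins of the intercalated disc, had -1.18 and -0.97. Mylk3, the cardiac kinase of the regulatory light chain, had -3.45 ± 0.0754, Unc45b, the chaperone of myosin heads, -3.06 ± 0.0453, and Smyd1, a methyltransferase of striated muscle, -3.05 ± 0.0861.

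**Figure D2:**
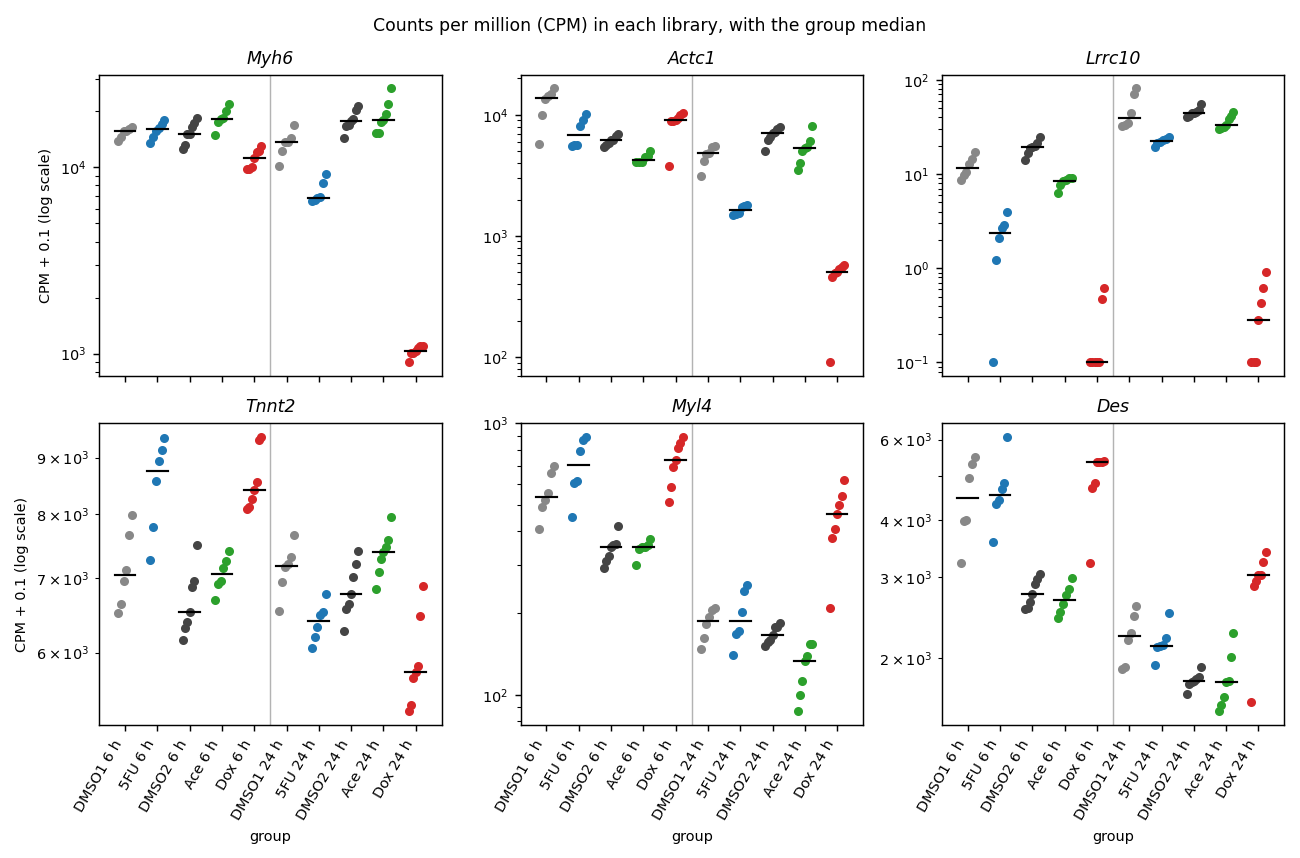
CPM of Myh6, Actc1, Lrrc10, Tnnt2, Myl4 and Des in each of the 65 libraries (points, log scale, 0.1 added), by group, with the group median as a bar and a grey line between 6 and 24 h. In Dox at 24 h all points of Myh6, Actc1 and Lrrc10 lie below DMSO2, all of Myl4 lie above it, and those of Des lie above it except library 7.

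Markers of other cells moved in the same comparison, where 41% of all genes were called lower and 40.4% higher. In Dox at 24 h, 12 of 13 cardiomyocyte markers outside the sarcomere were lower and 1 was higher, 11 of 12 fibroblast markers were lower and 9 of 9 endothelial markers were lower. Their median log2 fold changes were -2.31, -2.14 and -2.62. The fibroblast markers took 0.306% to 0.62% of counts in Dox and 1.72% to 2.18% in DMSO2. Cldn5, an endothelial tight-junction gene, had a median of 0 CPM in Dox. Macrophage markers were lower in 10 of 12 cases and higher in 1, and those of smooth muscle and pericytes in 4 and 3 of 8. The part of these cells in the sarcomere result was not tested.

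At 6 h the same genes moved in both directions in Dox. Of 39, 20 were higher and 11 lower than in DMSO2, where 31.5% of all genes were called higher and 32.7% lower. The median was 0.34, against 0.00 over all genes. Higher calls were made for 6 of 8 thick-filament, 6 of 10 thin-filament and 6 of 12 Z-disc genes. All 3 genes of myosin assembly or phosphorylation were lower. Endothelial markers were lower in 9 of 9 cases and fibroblast markers in 7 of 12, and of the cardiomyocyte markers 4 were higher and 6 lower. Their part was not tested. Without library 7, 21 genes were higher and 11 lower.

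Xirp2 ranged from 65.6 to 111 CPM (median 82.8) in DMSO2 at 6 h and from 106 to 886 CPM (median 787) in Dox at 6 h. Only library 7 of Dox reached into the control range. The log2 fold change was 3.001 ± 0.312 (SE), adjusted p = 4e-13, or 3.19 without library 7. Acta1 ranged from 994 to 1418 CPM (median 1323) in DMSO2 at 6 h and from 2004 to 6103 CPM (median 4689) in Dox at 6 h. All Dox libraries lay above the controls, with a log2 fold change of 1.72 ± 0.282 (1.84 without library 7).

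Csrp3 (muscle LIM protein, a stretch-sensing adaptor of the Z-disc) ranged from 353 to 468 CPM (median 395) in DMSO2 at 6 h and from 419 to 1666 CPM (median 1312) in Dox at 6 h. Again all but library 7 lay above the controls, and the log2 fold change was 1.62 ± 0.214, or 1.77 without it. Next came Myh7 (1.49), Myoz2 (1.09), Myl4 (1.07) and Des (0.81), in log2 fold change, and Myh7 had 1.63 without library 7. Myh7, the fetal beta-myosin, ranged from 2334 to 2636 CPM (median 2488) in DMSO2 at 6 h and from 2607 to 10080 CPM (median 7350) in Dox at 6 h.

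Lrrc10 was near 0 already at 6 h. It ranged from 13.9 to 24.7 CPM (median 19.1) in DMSO2, while 5 of 7 Dox libraries were listed at 0 and the highest, library 2, held 10 counts. The fitted log2 fold change was -7.14 ± 0.415 and became -8.22 without library 2, so its size is uncertain. Myh7b, a myosin heavy chain gene that hosts a microRNA, ranged from 64.4 to 94.2 CPM (median 81.2) in DMSO2 at 6 h and from 20 to 27.9 CPM (median 23.3) in Dox at 6 h. The groups did not overlap (log2 fold change -1.79 ± 0.117). Lmod2 ranged from 127 to 138 CPM (median 127) in DMSO2 at 6 h and from 27.3 to 54.6 CPM (median 46.6) in Dox at 6 h, likewise without overlap (log2 fold change -1.52 ± 0.107). Lower calls also included Xirp1 (-1.31), Mylk3 (-1.01), Cmya5 (-0.97) and Synpo2l (-0.91).

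The effect of Dox at 24 h minus that at 6 h, tested in the same model, passed the threshold for 32 of 39 genes, all towards lower values at 24 h, whereas 30.8% of all genes passed in that direction and 34% in the other. The count was 32 without library 7. Of the 20 genes higher at 6 h, 14 were lower at 24 h, 3 (Myl4, Acta1 and Des) were higher at both times and 3 (Myl2, Myl3 and Smpx) were not called at 24 h. All 11 genes lower at 6 h were also lower at 24 h, as were 8 not called at 6 h (Actc1, Tnni3, Nebl, Myom1, Tcap, Nexn, Flnc and Ankrd1). The shares of all genes with such pairs of calls were not counted. At 24 h alone, 41% of all genes were called lower and 40.4% higher. The difference between the Dox effects was -4.38 ± 0.303 for Actc1, -4.33 ± 0.197 for Myom2, -4.18 ± 0.43 for Xirp2 and -3.66 ± 0.147 for Myh6. Without library 7 it was -4.33 for Actc1 and -4.23 for Xirp2, and Actc1 was called higher at 6 h, at 0.62.

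**Figure D3:**
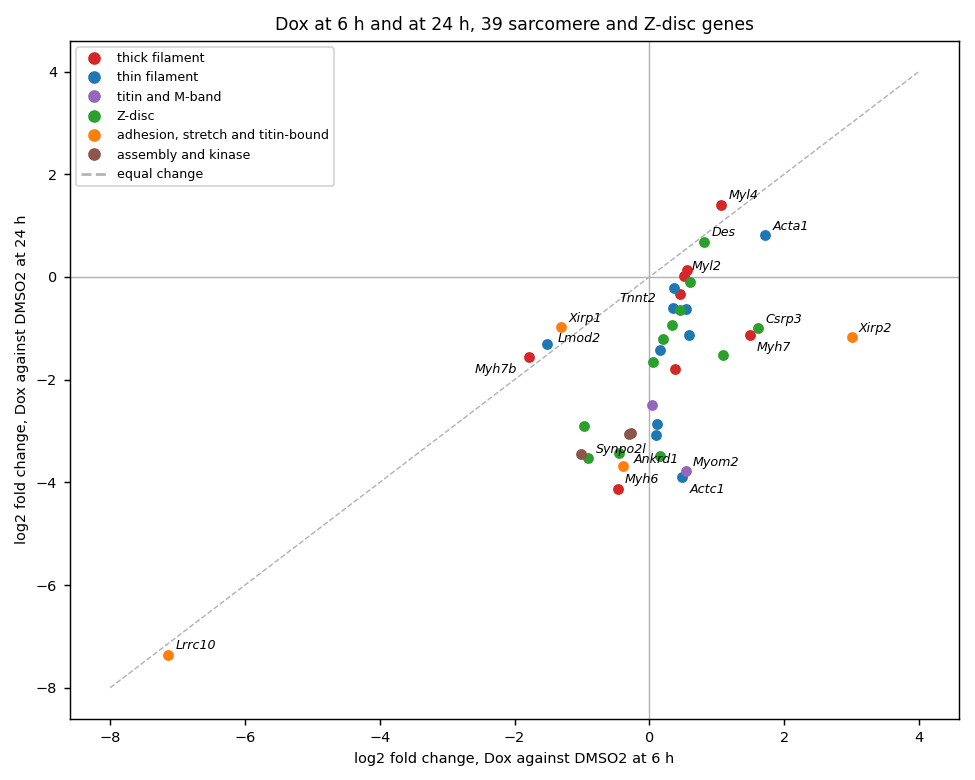
Log2 fold change of Dox against DMSO2 at 6 h (x axis) and at 24 h (y axis) for the 39 genes, coloured by role, with a dashed line of equal change. Lmod2, Myh7b, Xirp1 and Myl4 lie above the dashed line and the other genes below it.

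Isoform balance was read from the log2 ratio of counts of a gene pair within each library, which does not depend on scaling. From DMSO2 to Dox at 24 h, the ratio of Myh7 to Myh6 went from -2.82 ± 0.34 to 0.12 ± 0.477 (mean ± SD, n = 7 each), that of Tnni1 to Tnni3 from -0.34 ± 0.094 to 1.93 ± 0.0896 and that of Acta1 to Actc1 from -4.10 ± 0.571 to 0.63 ± 0.278. No library overlapped in these 3 ratios. The exact two-sided permutation test gave p = 0.000583 for each, the smallest it can give with 7 against 7, and an adjusted p of 0.00212 over 40 tests. Both partners of the myosin and troponin pairs were lower: the fitted log2 fold changes were -1.12 for Myh7 and -4.13 for Myh6, and -0.61 for Tnni1 and -2.87 for Tnni3. The ratio of Myl7 to Myl2 (atrial to ventricular regulatory light chain) changed by -0.36, opposite to the others (exact permutation test, adjusted p = 0.0233).

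At 6 h Dox changed these ratios by 1.86 for Myh7 to Myh6, 0.24 for Tnni1 to Tnni3 and 1.22 for Acta1 to Actc1 (exact permutation test, adjusted p = 0.00212, 0.00686 and 0.00212). Myl7 to Myl2 changed by -0.07 (exact permutation test, adjusted p = 0.306). Acta1 to Actc1 also changed at 6 h in 5FU, by 0.72, and in Ace, by 0.60 (exact permutation test, adjusted p = 0.00583 and 0.0117). In 5FU at 24 h the ratio of Tnni1 to Tnni3 changed by -0.74, opposite in sign to Dox, and Acta1 to Actc1 by 1.46 (exact permutation test, adjusted p = 0.00583 for both). In Ace at 24 h, Acta1 to Actc1 changed by 1.65 (exact permutation test, adjusted p = 0.011) and Myl7 to Myl2 by -1.14 (exact permutation test, adjusted p = 0.00212). The solvents differed too. Myh7 to Myh6 was higher in DMSO1 than in DMSO2 by 1.56 at 6 h and 1.04 at 24 h (exact permutation test, adjusted p = 0.00212 and 0.00583). Acta1 to Actc1 was higher there by 0.65 and 1.61 (exact permutation test, adjusted p = 0.00583 and 0.00777). Myl7 to Myl2 differed by -0.456 and -0.685 (exact permutation test, adjusted p = 0.00212 for both). Tnni1 to Tnni3 differed by 0.146 and -0.0636 (exact permutation test, adjusted p = 0.0458 and 0.5165).

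**Figure D4:**
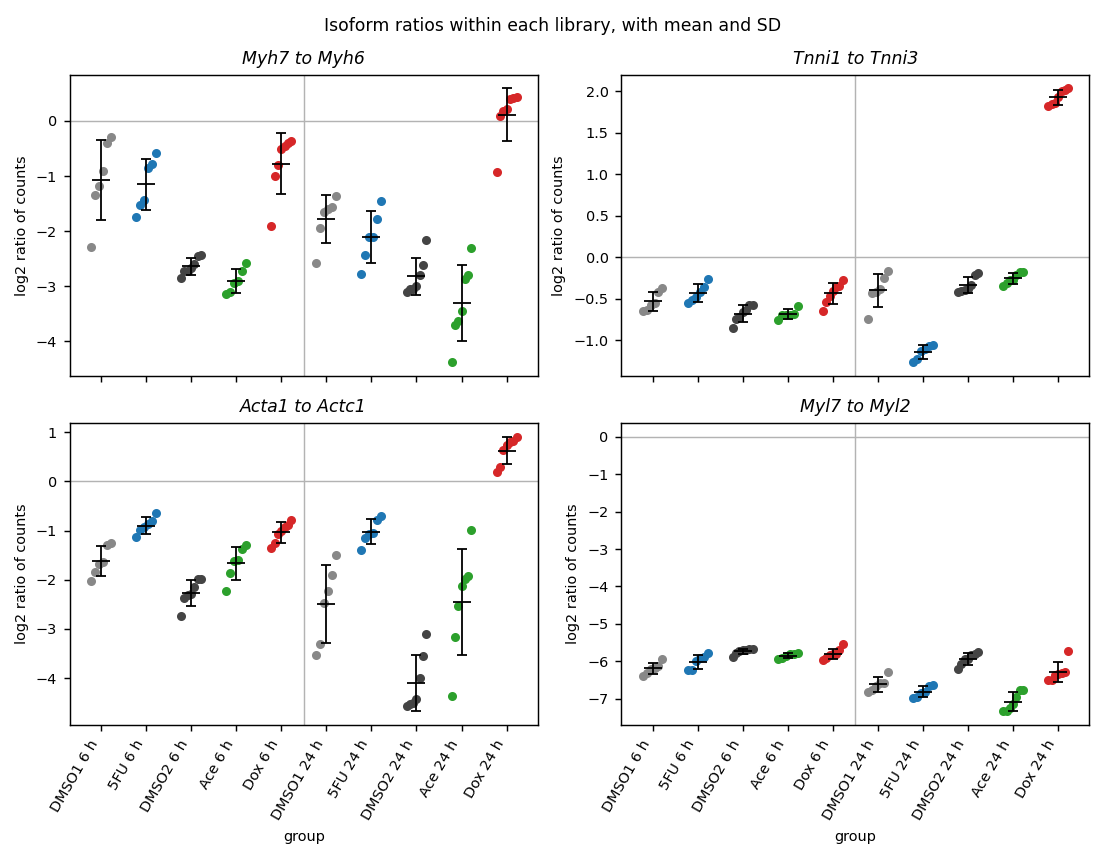
Log2 ratio of counts in each of the 65 libraries (points) for Myh7 to Myh6, Tnni1 to Tnni3, Acta1 to Actc1 and Myl7 to Myl2, by group, with mean and SD in black and a grey line between 6 and 24 h. All points of Dox at 24 h lie above every other group for Tnni1 to Tnni3 and Acta1 to Actc1, and above its control DMSO2 for Myh7 to Myh6.

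5FU at 6 h left 14 of the 39 genes lower and 5 higher than in DMSO1, where 24.5% of all genes were called lower and 23.4% higher, with a median of -0.09 against 0.00. All 4 genes of adhesion and stretch sensing and 6 of 12 Z-disc genes were lower. Of 10 thin-filament genes 3 were higher and 1 was lower. At 24 h, 19 were lower and 3 higher (27.8% and 28% of all genes), with a median of -0.27. At both times 9 genes were lower, and Myl7 and Tnni1 were higher at 6 h and lower at 24 h. The shares of all genes with such pairs of calls were not counted. The difference between the times was called higher for 8 genes and lower for 16 (20.3% and 19.2% of all genes). Without library 3 of DMSO1 at 6 h and library 1 at 24 h the counts were 8 and 11. The control DMSO1 at 6 h was itself higher than DMSO2 in 24 of the 39 genes and lower in 1 (9.87% and 6.6% of all genes). Log2 fold changes there were 3.39 for Xirp2, 2.23 for Ankrd1 and 1.96 for Csrp3. The part of this solvent difference in the 5FU values at 6 h was not tested.

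Lrrc10 ranged from 8.52 to 16.9 CPM (median 11.5) in DMSO1 at 6 h and from 0 to 3.88 CPM (median 2.28) in 5FU at 6 h. No libraries overlapped, and the log2 fold change was -2.55 ± 0.284 (SE), adjusted p = 1.1e-11. Xirp2 ranged from 115 to 1511 CPM (median 970.3) in DMSO1 at 6 h and from 115 to 376 CPM (median 224) in 5FU at 6 h. The groups overlapped, in part through library 3 of DMSO1, and the log2 fold change was -2.01 ± 0.322, or -2.24 without it. Myh7b ranged from 65.5 to 83.2 CPM (median 73.6) in DMSO1 at 6 h and from 19.8 to 28.2 CPM (median 25.4) in 5FU at 6 h, without overlap (log2 fold change -1.57 ± 0.125). Next lowest were Synpo2l (-1.53) and Nexn (-1.04). The genes that were higher moved little: Lmod2 had 0.45 ± 0.11 (not called when only 5FU and DMSO1 at 6 h were fitted), Myl7 0.36 ± 0.0811, Tnni1 0.31 ± 0.0534, Myl3 0.28 ± 0.066 and Tnnt2 0.25 ± 0.0598.

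At 24 h Myom2 had the lowest value in 5FU. It ranged from 114 to 157 CPM (median 139) in DMSO1 at 24 h and from 24.4 to 36.5 CPM (median 31.3) in 5FU at 24 h, a log2 fold change of -2.19 ± 0.144 (SE), adjusted p = 1.3e-20. Ankrd1 had a median of 603 CPM in DMSO1, where the lowest library had 506 CPM, and ranged from 164 to 221 CPM (median 181) in 5FU, a log2 fold change of -1.71 ± 0.231. Actc1 ranged from 3156 to 5562 CPM (median 4816) in DMSO1 at 24 h and from 1480 to 1801 CPM (median 1652) in 5FU at 24 h, a log2 fold change of -1.50 ± 0.226. In none of these 3 did the groups overlap. Tcap went the other way: it ranged from 29 to 44.1 CPM (median 30.9) in DMSO1 at 24 h and from 53.9 to 65 CPM (median 61.9) in 5FU at 24 h, again without overlap (log2 fold change 0.86 ± 0.19). Tnni3 and Unc45b were also higher, at 0.30 ± 0.0776 and 0.16 ± 0.0444.

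Fibroblast markers were lower in 12 of 12 cases in 5FU at 24 h (median -1.44), endothelial markers in 7 of 9, and 9 of 13 cardiomyocyte markers outside the sarcomere were lower and 1 higher. Their part in these values was not tested. The 39 genes took 4.76% ± 0.089 (SD, n = 6) of counts in 5FU at 24 h and 6.4% ± 0.317 (SD, n = 6) in DMSO1 at 24 h.

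Dox and 5FU have separate controls, so their effects were also set against each other. At 6 h the difference (Dox minus 5FU) was called higher for 17 genes and lower for 4 (22% and 24% of all genes), and at 24 h for 2 and 27 (35.8% and 35.4%). Without library 7 of Dox the counts were 20 and 4 at 6 h, and 5 and 27 at 24 h. The controls themselves differed at 6 h, where 24 of the listed genes were higher and 1 was lower in DMSO1 than in DMSO2. The part of this solvent difference in the 6 h counts was not tested. All 19 genes lower in 5FU at 24 h were among the 33 lower in Dox at 24 h, where 41% of all genes were lower. The share of all genes lower in both was not counted. Tnni3, Tcap and Unc45b moved in opposite directions, with differences of -3.17, -2.52 and -3.23. At 6 h Xirp2 had the largest difference in effect, 5.01 ± 0.449, or 5.21 without library 7 of Dox, and all its DMSO1 libraries lay above those of DMSO2 at that time.

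Ace left fewer of these genes called than 5FU or Dox in the model of all groups. With only the groups compared in the fit, the counts were 17 for Ace and 13 for 5FU at 6 h, and 22 and 26 at 24 h. At 6 h, 9 of 39 were lower and 0 higher than in DMSO2 by edgeR, where 15.2% of all genes were lower and 16.5% higher, and 17 of the 39 had an unadjusted p under 0.05; DESeq2 called 0 higher. The median was -0.18 against 0.00 over all genes. At 24 h, 10 were lower and 2 higher (19.1% and 18.2%), with a median of -0.21, and scaling to library size alone gave 10 lower and 4 higher. Synpo2l was lowest at both times. It ranged from 214 to 282 CPM (median 254) in DMSO2 at 6 h and from 73.8 to 104 CPM (median 91.9) in Ace at 6 h, a log2 fold change of -1.50 ± 0.191. It ranged from 246 to 313 CPM (median 306) in DMSO2 at 24 h and from 123 to 168 CPM (median 148) in Ace at 24 h, a log2 fold change of -0.97 ± 0.178. The groups did not overlap at either time. At 6 h, 7 of 12 fibroblast markers (median -0.40), 4 of 9 endothelial markers (median -0.48) and 4 of 13 cardiomyocyte markers outside the sarcomere (median -0.11) were lower as well, and their part was not tested.

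Lrrc10 ranged from 13.9 to 24.7 CPM (median 19.1) in DMSO2 at 6 h and from 6.26 to 9.06 CPM (median 8.38) in Ace at 6 h, without overlap (log2 fold change -1.24 ± 0.224), and Myh7b had -0.66 ± 0.116. At 24 h, Myom2 ranged from 153 to 181 CPM (median 160.3) in DMSO2 at 24 h and from 64.5 to 119 CPM (median 77.7) in Ace at 24 h, also without overlap (log2 fold change -0.95 ± 0.125). Myl7, the atrial regulatory light chain, ranged from 63.7 to 85 CPM (median 73.3) in DMSO2 at 24 h and from 34.6 to 47.1 CPM (median 39) in Ace at 24 h, with no overlap (log2 fold change -0.81 ± 0.0778). At 6 h its value was 0.01 ± 0.0783, and the difference between the times was -0.82 ± 0.11 (SE), adjusted p = 3.1e-08. That difference was called for 3 of the 39 genes, 1 higher and 2 lower (5.58% and 6.06% of all genes).

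The 2 genes that were higher in Ace at 24 h were Acta1 and Myl2. Acta1 ranged from 308 to 577 CPM (median 346) in DMSO2 at 24 h and from 392 to 2025 CPM (median 932) in Ace at 24 h. The groups overlapped, and the log2 fold change was 1.40 ± 0.28 (SE), adjusted p = 2.8e-05, or 1.17 without library 1 of Ace. Myl2 had 0.33 ± 0.0717. Fibroblast markers were lower in 11 of 12 cases (median -1.03) and cardiomyocyte markers outside the sarcomere in 9 of 13 (median -0.39). Their part was not tested.

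Dox was also compared directly with Ace. At 6 h, 25 genes were higher and 8 lower in Dox (30.6% and 31.4% of all genes), and at 24 h 3 and 31 (40.7% and 39.9%). At 24 h the log2 fold change was -4.22 ± 0.115 for Myh6, 1.83 ± 0.152 for Myl4 and 0.68 ± 0.11 for Des.

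The solvent controls differed from each other at 6 h. In DMSO1, 24 of 39 genes were higher and 1 was lower than in DMSO2, where 9.87% of all genes were called higher and 6.6% lower. The median was 0.40 against 0.01 over all genes, and 10 of 12 Z-disc genes were higher. Xirp2 ranged from 65.6 to 111 CPM (median 82.8) in DMSO2 at 6 h and from 115 to 1511 CPM (median 970.3) in DMSO1 at 6 h, without overlap (log2 fold change 3.39 ± 0.322 (SE), adjusted p = 3.9e-12). Ankrd1 ranged from 431 to 512 CPM (median 488) in DMSO2 at 6 h and from 483 to 3796 CPM (median 2339) in DMSO1 at 6 h (log2 fold change 2.23 ± 0.221), and Csrp3 ranged from 353 to 468 CPM (median 395) in DMSO2 at 6 h and from 419.5 to 2183 CPM (median 1762) in DMSO1 at 6 h (log2 fold change 1.96 ± 0.222). In all 3 genes library 3 was the lowest of DMSO1, and for Ankrd1 and Csrp3 it reached into the DMSO2 range.

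Without library 3 of DMSO1 at 6 h and library 1 at 24 h, the values were 3.62 for Xirp2, 2.44 for Ankrd1 and 2.15 for Csrp3, and 25 genes were higher and 1 lower. Mylk3 was the gene that was lower: it ranged from 245 to 307 CPM (median 279.9) in DMSO2 at 6 h and from 198 to 283 CPM (median 205) in DMSO1 at 6 h, with overlap (log2 fold change -0.36 ± 0.0708). In the same comparison 8 of 12 fibroblast and 7 of 9 endothelial markers were lower, and their part was not tested. At 24 h a single gene passed, Myl7, which ranged from 63.7 to 85 CPM (median 73.3) in DMSO2 at 24 h and from 42.8 to 60.4 CPM (median 49.8) in DMSO1 at 24 h (log2 fold change -0.53 ± 0.081). There 0.137% of all genes were called higher and 0.295% lower, and 9 of the 39 had an unadjusted p under 0.05. Xirp2, Ankrd1 and Csrp3 were not called at 24 h, at 0.32, -0.26 and 0.12.

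**Figure D5:**
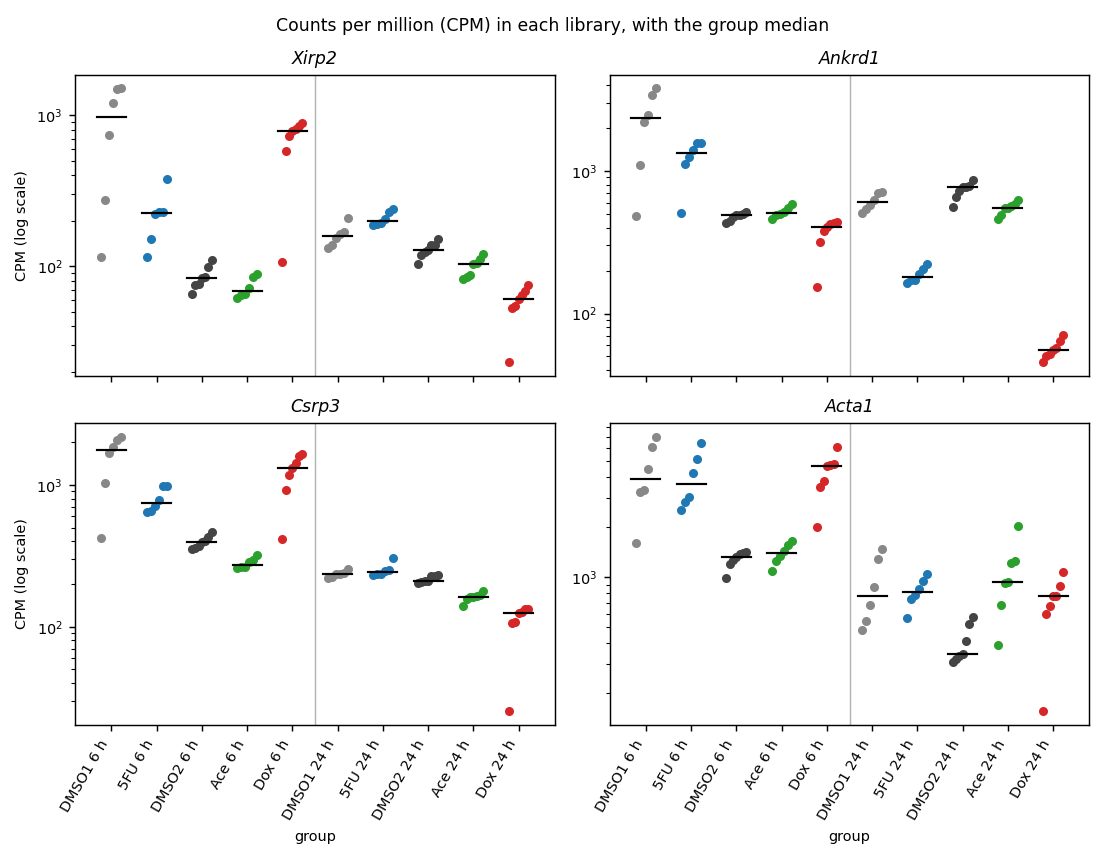
CPM of Xirp2, Ankrd1, Csrp3 and Acta1 in each of the 65 libraries (points, log scale), by group, with the group median as a bar and a grey line between 6 and 24 h. At 6 h the medians of DMSO1 lie above those of DMSO2 in all 4 genes, and those of Dox lie above DMSO2 for Xirp2, Csrp3 and Acta1.

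These genes also differed between the times in the controls, in which hours in culture and hours in DMSO cannot be told apart. At 24 h against 6 h over both solvent controls, 11 were higher and 20 lower (32.7% and 31.9% of all genes), with a median of -0.23. This mean over the solvents joined different changes. Within DMSO1, 7 were higher and 21 lower (25.9% and 27.9% of all genes), and within DMSO2 14 and 10 (27% and 25.5%). Of these, 17 were called in the same direction in both, a share not counted over all genes. Ankrd1 was called in opposite directions, at -1.88 ± 0.231 in DMSO1 and 0.61 ± 0.208 in DMSO2. Xirp2 had -2.47 ± 0.328 and 0.60 ± 0.295, and Actc1 -1.43 ± 0.226 and 0.14 ± 0.205, neither of which was called in DMSO2.

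The change of the solvent difference between the times was called lower for 13 genes, where 3.02% of all genes were called lower and 0.797% higher, or for 17, with 1 called higher, without library 3 of DMSO1 at 6 h and library 1 at 24 h. It was -3.07 ± 0.437 for Xirp2, -2.49 ± 0.31 for Ankrd1, -1.84 ± 0.312 for Csrp3 and -1.57 ± 0.304 for Actc1. These contrasts within and between the solvents were added after seeing the data.

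Over both solvents, Myom2 had medians of 32.9 and 26.4 CPM in DMSO1 and DMSO2 at 6 h and of 139 and 160.3 CPM at 24 h, and within each solvent the times did not overlap (log2 fold change 2.28 ± 0.0977). Lrrc10 and Mylk3 followed with 1.63 ± 0.146 and 0.94 ± 0.0501. Within each solvent their times did not overlap either, nor did those of the 3 genes with the lowest values, Acta1 (-1.97 ± 0.209), Csrp3 (-1.79 ± 0.159, from -2.71 in DMSO1 and -0.87 in DMSO2) and Myl4 (-1.32 ± 0.11). Acta1 had medians of 3911 and 1323 CPM in DMSO1 and DMSO2 at 6 h and of 773 and 346 CPM at 24 h. Within DMSO2 the ratio of Tnni1 to Tnni3 changed by 0.34 and that of Acta1 to Actc1 by -1.84 (exact permutation test, adjusted p = 0.00212 for both). Within DMSO1 they changed by 0.13 and -0.87 (exact permutation test, adjusted p = 0.209 and 0.0416).

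Related genes outside the list give the surroundings of these values. Of 31 other striated sarcomere genes measured, 13 were higher and 13 lower in Dox at 24 h (median 0.02). There 40.4% of all genes were called higher and 41% lower, close to the shares of this list. Actn3, the alpha-actinin of fast skeletal fibres, had a log2 fold change of 6.09 and Tnnc2, the fast skeletal troponin C, 4.01, whereas Myom3, another myomesin, had -3.73 and Speg, a kinase of striated muscle, -3.54. Of 18 nonmuscle and smooth muscle counterparts, 5 were higher and 8 lower in the same comparison (40.4% and 41% of all genes). Myh11, smooth muscle myosin, had 2.69 and Actg1, a cytoplasmic actin, -1.52.

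Of 22 regulators, chaperones and ubiquitin ligases, 3 were higher and 15 lower in Dox at 24 h (40.4% and 41% of all genes). Trim55 and Trim54, muscle RING-finger proteins, had -2.81 and -2.77. Cryab, a small heat shock protein of the Z-disc, had 1.72 and Unc45a, the general-cell relative of Unc45b, 1.21. At 6 h in Dox, 16 were lower and 4 higher (32.7% and 31.5% of all genes). The cardiac transcription factors Nkx2-5 and Tbx20 had -2.92 and -1.79, and the chaperone Hsp90aa1 1.09. In 5FU at 6 h, 13 were lower and 2 higher (24.5% and 23.4% of all genes). There Tbx20 had -1.28 and Hand2, another cardiac transcription factor, -1.26. In 5FU at 24 h, 7 were lower and 5 higher (27.8% and 28% of all genes). In Ace the counts were 6 lower and 1 higher at 6 h (15.2% and 16.5% of all genes). At 24 h in Ace they were 7 and 1 (19.1% and 18.2% of all genes).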

How the data were processed

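Polyadenylated RNA from Trizol lysates was sequenced as paired reads. The authors quantified the reads with kallisto 0.46.0 against the Ensembl rat transcriptome, summed transcripts to Entrez genes with tximport, removed genes with low counts, and deposited whole-number estimated counts. Strandedness was not given in the sources used here. Columns of the table name a treatment and hour only, so libraries were numbered in column order within a group. The 39 genes were matched by Entrez identifier. Estimated counts were fitted with edgeR 4.0.16 (limma 3.58.1, R 4.3.3): TMM factors, a single quasi-likelihood model over all 65 libraries with group as the only term, genes with at least 10 counts in 1 library, and Benjamini-Hochberg adjustment over all 14554 genes. Every adjusted p of a log2 fold change comes from this model. Isoform ratios, log2((a + 1)/(b + 1)) of counts, were compared by exact two-sided permutation tests, adjusted over 40. The scripts were tested on simulated data. Alternatives were DESeq2 1.42.0 (test and size factors), other scalings, filters, thresholds, pseudocounts, fits of the compared groups only, and leaving out each library. Genes shown with ranges were the 3 with the largest rise and the 3 with the largest fall among those called in each comparison, and the members of the isoform pairs, with others added for their role after values were seen. In related lists, the 2 largest in each direction could be named. The genes and lists were chosen with earlier results of these data known. Promoters were taken from RefSeq (GRCr8).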

Additional observations from a re-analysis of the deposited data

Results flagged for a closer look

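In 8 of 89 groups of values tested, a single library lay further from the rest than Dixon's test allows at the 95% level, and chance gives about 1 in 20. Library 7 of Dox at 6 h was low in Xirp2 (106 CPM, the others 578 to 886) and in the share of counts taken by all 39 genes (6.01%, the others 7.89% to 8.57%). Library 7 of Dox at 24 h was low in Actc1 (90.1 CPM, the others 458 to 577), in Des (1606 CPM, the others 2868 to 3416) and in the share of all 39 genes (2.14%, the others 2.95% to 3.55%). Among the controls, Mylk3 was high in library 3 of DMSO1 at 6 h (283 CPM, the others 198 to 219), Tcap in library 1 of DMSO1 at 24 h (44.1 CPM, the others 29 to 32.3) and Lmod2 in library 3 of DMSO2 at 6 h (138 CPM, the others 127 to 129.7).

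Drug effects that differed between 24 and 6 h were found for 32 genes in Dox, 24 in 5FU and 3 in Ace. These calls came from the test of the difference itself. Of all genes, 34% were called higher and 30.8% lower in Dox. The shares were 20.3% and 19.2% in 5FU, and 5.58% and 6.06% in Ace. In Dox the difference was -4.38 for Actc1, -4.18 for Xirp2, -3.66 for Myh6 and -2.62 for Csrp3 (log2). In 5FU it was 2.38 for Xirp2, 1.41 for Lrrc10, 1.16 for Myh7b, 0.90 for Tcap and 0.30 for Unc45b, and -2.39 for Myom2, -0.77 for Myl7, -0.74 for Tnni1 and -0.54 for Lmod2, whose call was lost without library 3 of DMSO1 at 6 h and library 1 at 24 h (-0.43, FDR 0.0144). In Ace it was -0.82 for Myl7 and -0.65 for Myom2. The effects of Dox and 5FU, each against its own solvent control, differed for 21 genes at 6 h and 29 at 24 h. Of all genes, 22% were called higher and 24% lower at 6 h, and 35.8% and 35.4% at 24 h. The part of the solvent difference at 6 h in the counts for Dox and 5FU was not tested.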

How the results depend on the processing

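The 43 log2 fold changes of the genes with the largest rises and falls (drug, solvent and control time comparisons) and the 40 isoform ratios kept their sign. Other named log2 fold changes were not followed through all settings. Of 450 recomputed counts of called genes, 427 stayed within 1.5 times the reported count. Of 990 recomputed log2 fold changes, 983 kept their direction and call, as did all 80 recomputed isoform ratios. Those 80 came from a pseudocount of 0.5 and from the share of the first form. Both reuse the same counts, so they test little. The fit without a filter, included in these totals, repeated the main fit because the filter removed none of the 14554 genes. Lmod2 in 5FU at 6 h was not called when only its groups were fitted (0.45, FDR 0.0123), and Acta1 in Dox at 24 h lost its call in 6 fits without a library, at 0.70 to 0.78. An FDR below 0.1 gave 17 genes for Ace at 6 h, 19 for Ace at 24 h, 3 for the solvents at 24 h and 7 for the Ace time difference. Adding a log2 fold change of at least 1 gave 5 and 8 for 5FU at 6 and 24 h, 2 and 1 for Ace at those times, 11 for Dox at 6 h, 8 and 0 for the solvents, 6 for time in the controls, 7 (5 higher and 2 lower) and 0 for the 5FU and Ace time differences, 11 for Dox minus 5FU at 6 h, and 10 and 22 for Dox against Ace at 6 and 24 h. The balance of directions turned in the 5FU time difference, from 8 higher and 16 lower, and in Ace at 24 h, from 2 higher and 10 lower to 1 higher and 0 lower. For the comparisons at 0, edgeR gave 9 (solvents at 24 h) and 9 (Ace time difference) genes at an unadjusted p under 0.05, and DESeq2 called 3 and 3 at an FDR below 0.01 with no minimum change. Fitting only the groups compared gave 17, 22 and 7 for Ace at 6 h, at 24 h and the Ace time difference. Library size alone gave 5 for the Ace time difference (4 higher and 1 lower, against 1 and 2 as reported). Its balance also turned at an FDR below 0.1 (5 higher and 2 lower), with only the groups compared (4 and 3) and in DESeq2 (2 and 1). For the solvents at 24 h DESeq2 gave 3, and leaving out a library gave 1 to 3, the latter without library 4 of DMSO1. The cause of the changes under other fits was not tested.

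Scaling to library size alone moved the median of all genes in Dox at 6 h to -0.15, where 17 of the 39 genes were higher and 11 lower, with a median of 0.19, and it moved that of the Dox time difference to 0.27 and of Dox against Ace at 6 h to -0.11. The settings without libraries that stood apart were chosen after seeing the data. No paired analysis was possible because the columns of the count table carry no replicate number. Lrrc10 in Dox, at 15 counts or fewer, is limited by depth, and levels cannot separate fewer cells from less RNA per cell.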
